A study of Mus musculus with 96 samples.

Results

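Hox genes encode transcription factors that share a DNA-binding homeodomain and lie in clusters on separate chromosomes. The members described here are the 26 genes of the count table whose names are Hoxa, Hoxb, Hoxc or Hoxd followed by a number, of 19836 genes in all. They comprise 9 Hoxa genes on chromosome 6, 8 Hoxb genes on chromosome 11, 6 Hoxc genes on chromosome 15 and 3 Hoxd genes on chromosome 2. The other annotated Hox genes were not analysed here. Genes of the same number in different clusters are paralogues, descended from 1 ancestral gene, and low numbers lie at one end of a cluster and high numbers at the other. Along the embryo, genes at the low-numbered end are known to be used from the hindbrain backwards, and genes at the high-numbered end only further towards the tail. In blood, the middle and posterior Hoxa genes and several Hoxb genes are known from stem and progenitor cells, and high Hoxa9 and Meis1 are a hallmark of some acute leukaemias.

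The series holds 96 single cells of C57BL/6 mouse embryos, sorted 1 per well and sequenced from full-length cDNA. Blood stem cell precursors (pre-HSCs) were sorted at E11.5 (E, embryonic day) as Ter119-CD11b-CD144+c-kit+EPCR+ cells from the AGM, the region of aorta, gonad and mesonephros (48 cells), and by the same gate from the yolk sac (16 cells). Haematopoietic stem cells (HSCs) were sorted from fetal liver as Ter119-Sca-1+c-kit+EPCR+ cells at E12.5 (16 cells) and as Ter119-Sca-1+c-kit+CD48-CD150+ cells at E14.5 (16 cells). The groups differ in site, day and gate, and the liver groups differ from each other in day and gate. No allele, transgene or treatment is named for any group. The labels name no animal, litter or pool, so each group was treated as 1 sample, no test between groups was possible, and intervals cover counting error only. Reads were not counted as molecules, and fewer expressing cells cannot be told apart from less RNA per cell in a sum over cells.

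The results turn on how Hoxa genes differ from Hoxb genes of the same number, and a short read can be assigned to one of a pair of paralogues only where their sequences differ. The 180-base homeobox, which encodes the homeodomain, was therefore compared between paralogues in the GENCODE M21 transcripts of GRCm38, the assembly also called mm10. Hoxa9 and Hoxb9 differed at 33 of the 180 bases, Hoxa7 and Hoxb7 at 27, and Hoxa5 and Hoxb5 at 29. Over all 22 pairs of paralogues among the members, homeobox identity was 73.3% to 93.9%, and the longest run of bases shared by a pair of transcripts was 13 to 50 bases. The longest shared run was 17 bases for Hoxa9 and Hoxb9, 33 for Hoxa3 and Hoxb3, and 50 for Hoxb9 and Hoxc9. The read length was not given in the sources used here.

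Some members share exon sequence with other annotated genes, and whether counting used strand is not given in the sources used here. Antisense genes overlapped 52.9% of the exon bases of Hoxb3, 27.3% of Hoxb2, 25.4% of Hoxa3, 20.4% of Hoxa7 and 16% of Hoxa4. Genes on the same strand overlapped 52.3% of Hoxd4 and 15.04% of Hoxa2. Reads of these members cannot be told apart from reads of their neighbours in the shared bases. Hoxa5, Hoxa6, Hoxa10, Hoxb4, Hoxb6, Hoxb7, Hoxb8 and Hoxb9 had no such overlap.

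Pooled reads numbered 60280645 in the AGM, 22306075 in the yolk sac, 19053123 in the E12.5 liver and 20585452 in the E14.5 liver, with 250235 to 1926882 reads per cell. The median cell had reads of 5522.5 genes in the AGM, 5349.5 in the yolk sac, 4036 in the E12.5 liver and 4839 in the E14.5 liver. E12.5 cell 8 had only 1011 genes. Of 8 endothelial markers, the median AGM cell had reads of 5.5, and the median yolk sac, E12.5 and E14.5 liver cells of 3.5, 2 and 2.5; Kdr was at 0 in all E12.5 liver cells, and Cldn5 and Sox17 were at 0 in all E14.5 liver cells. Of 8 haematopoietic markers the medians were 6, 5.5, 5 and 5. Reads of the 4 nephric markers Pax2, Pax8, Wt1 and Lhx1 were found in AGM wells only, and single wells held up to 7 of 9 mesenchymal markers in the AGM, 5 in the yolk sac and 1 in either liver group. Of 8 erythroid markers the medians were 1, 2, 4 and 5 from the AGM to E14.5 liver, and the highest summed level of any cell was 561, 946, 10066.5 and 227508 CPM. Of 7 macrophage markers the medians were 0.5, 0, 1 and 1, with highest summed levels of 278, 92.6, 13667.2 and 707 CPM. The part of macrophage reads in the Hox results was not tested. The Hox totals, the clusters and the counts of called members are also given without the wells that held mesenchymal or nephric markers.

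Hox reads were found in most cells of each group, and the clusters they came from differed between groups. At least 1 Hox read was present in 44 of the 48 AGM cells (91.7%, exact Clopper-Pearson 95% interval 80.0 to 97.7%), 12 of the 16 yolk sac cells (75%, 47.6 to 92.7%), 14 of 16 E12.5 liver cells (87.5%, 61.7 to 98.4%) and 16 of 16 E14.5 liver cells (100%, 79.4 to 100%). The median cell had reads of 4 Hox genes in the AGM (range 0 to 20), 2.5 in the yolk sac (0 to 10), 2 in the E12.5 liver (0 to 9) and 2 in the E14.5 liver (1 to 5). All 26 members had a read somewhere in the AGM, 16 in the yolk sac, 11 in the E12.5 liver and 8 in the E14.5 liver. The AGM group has more cells than the others, which raises its chance of a read of a rare gene.

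**Figure D1:**
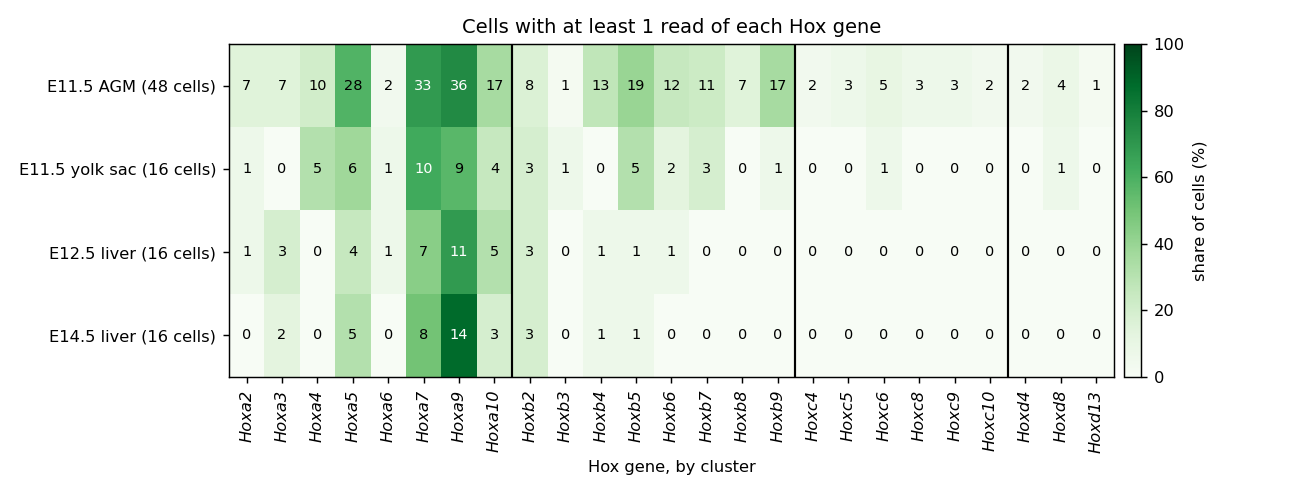
Each square gives the number of cells of a group (rows) with at least 1 read of a Hox gene (columns, 25 of the 26 members by cluster), and its colour the share of that group's cells in percent. Hoxa7 and Hoxa9 stand out in every row, and the Hoxc and Hoxd columns are empty in both liver rows.

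Summed over the cells of a group, Hox reads were at 232.8 CPM, the usual unit for reads scaled to the same total in each group (exact Poisson 95% interval 228.9 to 237) in the AGM, 145.03 (140 to 150) in the yolk sac, 199.3 (192.996 to 205.7) in the E12.5 liver and 309 (301 to 317) in the E14.5 liver. The Hoxa genes took 74.8% of these reads in the AGM, 89.95% in the yolk sac, 99.6% in the E12.5 liver and 97.3% in the E14.5 liver. Most of them belonged to Hoxa7 and Hoxa9, which together held 58.7% of Hox reads in the AGM, 78.7% in the yolk sac, 79.9% in the E12.5 liver and 89.3% in the E14.5 liver. Pooled Hoxa CPM was 174.2 in the AGM, 130 in the yolk sac, 198.4 in the E12.5 liver and 301 in the E14.5 liver. Pooled Hoxb CPM was 45.9, 14.2, 0.840 and 8.40 in the same order. The Hoxa total was highest in the E14.5 liver, where the Hoxb total was below that of the AGM. The order of Hoxb in the yolk sac and the E14.5 liver rested on 1 cell, since the yolk sac value was 6.90 CPM without its cell 6.

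**Figure D2:**
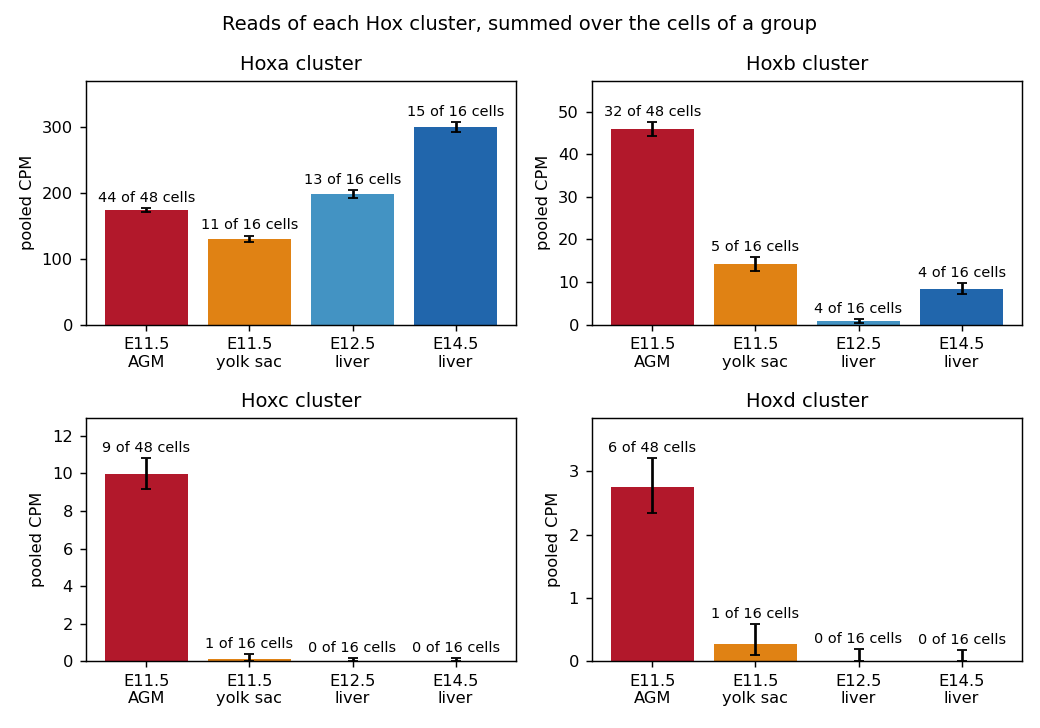
Bars show reads of each Hox cluster summed over the cells of a group, as CPM of the group (a separate linear axis per cluster, from 0); error bars are exact Poisson 95% intervals, for counting error only, and the number of cells with a read stands above each bar. The Hoxa bar is highest in the E14.5 liver at 301 CPM, and the Hoxb, Hoxc and Hoxd bars are highest in the AGM at 45.9, 9.97 and 2.75 CPM.

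Among the posterior Hoxa genes, Hoxa9, a factor needed for normal numbers of stem and progenitor cells, was the member detected in the most cells of the AGM and of both liver groups. It had a read in 36 of the 48 AGM cells (75%, 60.4 to 86.4%), 9 of the 16 yolk sac cells (56.25%, 29.9 to 80.2%), 11 of 16 E12.5 liver cells (68.75%, 41.3 to 89.0%) and 14 of 16 E14.5 liver cells (87.5%, 61.7 to 98.4%), intervals that overlap throughout. At 10 CPM or more it was in 33 AGM cells, 9 yolk sac cells, 8 E12.5 liver cells and 14 E14.5 liver cells. Per cell it ranged from 0 to 344 CPM in the AGM (median 41.02), 0 to 414 in the yolk sac (median 36.03), 0 to 351 in the E12.5 liver (median 20.8) and 0 to 586 in the E14.5 liver (median 208.5). The E14.5 liver cells lay mostly above the rest: 11 of 16 were at 100 CPM or more, against 13 of 48 in the AGM, 3 of 16 in the yolk sac and 5 of 16 in the E12.5 liver, although the groups overlapped. Pooled Hoxa9 was 64.4 CPM in the AGM, 64.5 in the yolk sac, 94.7 in the E12.5 liver and 188.3 in the E14.5 liver. Leaving out each E14.5 cell in turn kept the last value between 153.1 and 204.5 CPM. On the log2(CPM + 1) scale used for all differences here, E14.5 liver was 1.53 above AGM and 0.98 above E12.5 liver, the latter just short of the 2-fold mark.

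Hoxa10, its neighbour on the same strand and a factor that expands progenitors when overexpressed, was less common, with a read in 17 of the 48 AGM cells, 4 of the 16 yolk sac cells, 5 of 16 E12.5 liver cells and 3 of 16 E14.5 liver cells. The median cell had none in any group, and the highest had 62.8 CPM in the AGM, 14.53 in the yolk sac, 206.4 in the E12.5 liver and 68.4 in the E14.5 liver. Pooled Hoxa10 was 5.64 CPM in the AGM, 3.05 in the yolk sac, 20.5 in the E12.5 liver and 12.2 in the E14.5 liver. In the E12.5 liver, cell 7 held 52.3% of the reads, and without it the pooled value was 10.4 CPM. Without E14.5 cell 4 the E14.5 value was 7.29 CPM. All but 2 of the 17 AGM cells with Hoxa10 also had Hoxa9, which was in 36 of all 48 AGM cells.

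Of the middle Hoxa genes, Hoxa7 was the other member with a high level in every group. It had a read in 33 of the 48 AGM cells (68.75%, 53.7 to 81.3%), 10 of the 16 yolk sac cells, 7 of 16 E12.5 liver cells and 8 of 16 E14.5 liver cells. Per cell it ranged from 0 to 888 CPM in the AGM (median 40.997), 0 to 207.8 in the yolk sac (median 16.2), 0 to 236 in the E12.5 liver (median 0) and 0 to 308 in the E14.5 liver (median 14.7). In the E12.5 liver its positive cells stood apart from its negative ones, with the lowest positive cell at 55.0 CPM. Pooled Hoxa7 was 72.3 CPM in the AGM (57.8 without AGM cell 18), 49.7 in the yolk sac, 64.6 in the E12.5 liver and 87.4 in the E14.5 liver, and no comparison reached 2-fold. Per kilobase of exon, pooled Hoxa7 was 25.1 CPM and pooled Hoxa9 11.54 CPM in the AGM, and the order was reversed in the E14.5 liver at 30.4 and 33.8 CPM.

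Hoxa5, a middle gene with known roles in lung patterning and in the choice between red cell and myeloid fates, had a read in 28 of the 48 AGM cells (58.3%, 43.2 to 72.4%), 6 of the 16 yolk sac cells, 4 of 16 E12.5 liver cells and 5 of 16 E14.5 liver cells. The highest cell had 123 CPM in the AGM, 43.1 in the yolk sac, 161.7 in the E12.5 liver and 82.6 in the E14.5 liver, and only the AGM median was above 0, at 3.90 CPM. Pooled Hoxa5 was 20.7 CPM in the AGM, 6.55 in the yolk sac, 7.14 in the E12.5 liver and 12.4 in the E14.5 liver. AGM was the highest group, and the E12.5 liver rested on cell 9, without which its value was 1.25 CPM. The yolk sac value was 3.85 CPM without cell 5.

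Hoxa4 had a read in 10 of the 48 AGM cells and 5 of the 16 yolk sac cells, with highest cells of 46.5 and 33.3 CPM, and in no liver cell. Pooled Hoxa4 was 2.72 CPM in the AGM (1.52 without cell 30) and 5.96 in the yolk sac (3.95 without cell 5). With no read in 16 cells the exact interval of the share was 0 to 20.6%. The pooled AGM level was 17.3-fold the 3-read floor of the E12.5 liver and 18.7-fold that of the E14.5 liver. These ratios do not cover which cells were sampled, and AGM cell 30 alone held 45.7% of the AGM reads. Hoxa4 was the only middle or posterior Hoxa member with no liver read. Hoxa6, between Hoxa5 and Hoxa7, was rare everywhere: AGM cell 25 held 98.2% of the 55 AGM reads, yolk sac had 1 read, E12.5 liver had 10 reads in cell 10, and the E14.5 liver had none.

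**Figure D3:**
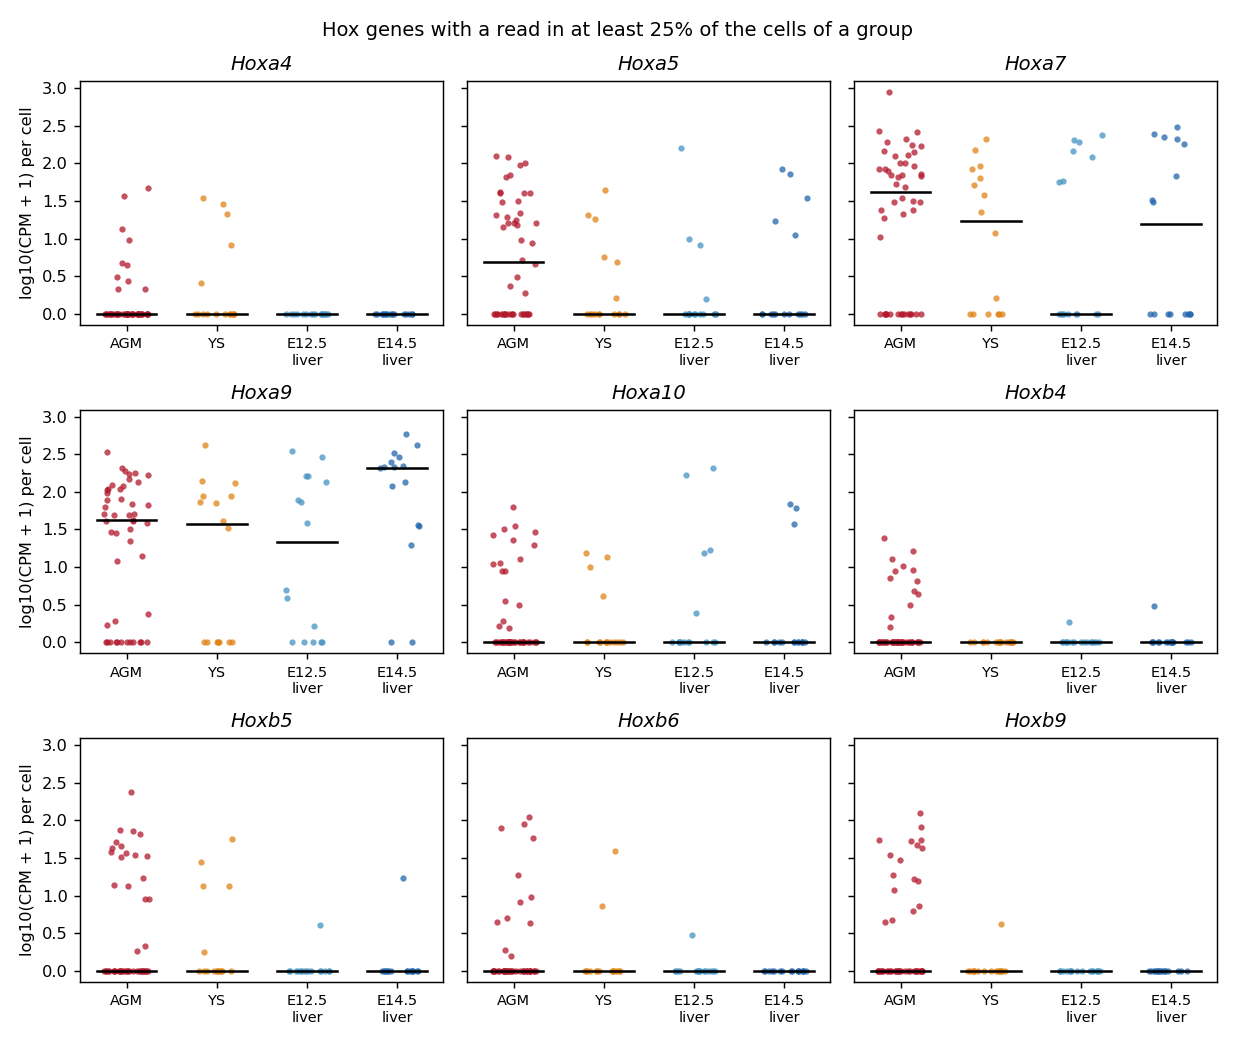
Each point is 1 cell, with log10(CPM + 1) on the y axis and the 4 groups on the x axis (YS, yolk sac), for the 9 Hox genes with reads in 25% or more of the cells of any group; black lines are medians over all cells of a group. Hoxa7 and Hoxa9 have high cells in every group, and Hoxb9 has 17 positive cells in the AGM, 1 in the yolk sac and none in liver.

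The anterior genes, which pattern the hindbrain and pharyngeal arches, were sparse. Hoxa2 was found in 7 AGM cells at 6.01 CPM pooled, and in 1 yolk sac cell and 1 E12.5 cell with 8 and 6 reads. Hoxa3 had a read in 7 AGM cells (1.178 CPM, or 0.598 without cell 27), 3 E12.5 liver cells and 2 E14.5 liver cells. Its 10.7 CPM in the E12.5 liver came almost wholly from cell 5 (164.1 CPM in that cell, 96.6% of the reads), and was 0.392 CPM without it. Hoxb2 had a read in 8 AGM cells and in 3 cells of each other group, at 1.92, 0.897, 0.525 and 7.29 CPM from the AGM to E14.5 liver. The last value was 2.44 CPM without E14.5 cell 10, which held 68.7% of the reads. The yolk sac value was 0.333 CPM without cell 13, and that of E12.5 was 0.175 without cell 3. Hoxb3 had 6 reads in AGM cell 9, 2 in yolk sac cell 3 and none in liver. The E12.5 level of Hoxa3 thus rested on 1 cell.

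Reads of the Hoxb cluster as a whole, anterior Hoxb2 and Hoxb3 included, were detected most often in the AGM. Any Hoxb read was present in 32 of the 48 AGM cells (66.7%, 51.6 to 79.6%), 5 of the 16 yolk sac cells (31.25%, 11.02 to 58.7%), and 4 of 16 cells in each liver group (25%, 7.27 to 52.4%). In the E12.5 liver the Hoxb reads numbered 16, of which cell 1 held 43.75%. Yolk sac cell 6 held 55.4% of that group's Hoxb reads, and without it the pooled value fell from 14.2 to 6.90 CPM. E14.5 cell 10 held 59.5% there, and without it 8.40 CPM became 3.64.

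Hoxb5, which has been used to mark long-term stem cells in adult bone marrow, was the most often detected Hoxb gene in the AGM. It had a read in 19 of the 48 AGM cells (39.6%, 25.8 to 54.7%), 5 of the 16 yolk sac cells, 1 E12.5 cell and 1 E14.5 cell. The median was 0 in every group, and the highest cell had 237 CPM in the AGM, 55.2 in the yolk sac, 2.999 in the E12.5 liver and 16.2 in the E14.5 liver. Pooled Hoxb5 was 15.99 CPM in the AGM, 8.20 in the yolk sac (3.87 without cell 6), 0.157 in the E12.5 liver (3 reads) and 1.02 in the E14.5 liver (21 reads, all in cell 5). The ratio of the AGM to E12.5 liver was 102-fold, with a counting interval of 34.6 to 493 that does not cover which cells were sampled.

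Hoxb9, the most posterior Hoxb member, had a read in 17 of the 48 AGM cells (35.4%, 22.2 to 50.5%), in 1 yolk sac cell with 4 reads, and in no liver cell (0 of 16 in each group, interval 0 to 20.6%). The highest AGM cell had 123 CPM, and the pooled AGM value of 10.2 CPM lay at 8.73 to 10.6 as cells were left out in turn. The pooled AGM level was 65.0-fold the 3-read floor of the E12.5 liver and 70.2-fold that of the E14.5 liver. These ratios too do not cover which cells were sampled. The yolk sac interval (0.158 to 30.2%) overlapped that of the AGM. These intervals treat cells as independent and are no test between groups. Hoxb9 was in 11 of 16 AGM cells numbered 1 to 16 and in 6 of 32 numbered 17 to 48.

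Hoxb4, which expands stem cells when overexpressed, had a read in 13 of the 48 AGM cells (27.1%, 15.3 to 41.8%), no yolk sac cell, 1 E12.5 cell (1 read) and 1 E14.5 cell (2 reads). Its AGM level was low, at 1.79 CPM pooled and 23.7 CPM in the highest cell. Hoxb6 had a read in 12 AGM cells (6.54 CPM, or 4.25 without cell 41), 2 yolk sac cells (3.72 CPM, or 0.588 without cell 6), 1 E12.5 cell (2 reads) and no E14.5 cell. Hoxb7 had a read in 11 AGM cells (8.83 CPM) and 3 yolk sac cells (1.08 CPM, or 0.687 without cell 1), and in no liver cell. Hoxb8 had 29 reads in 7 AGM cells and none elsewhere.

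The Hoxc and Hoxd genes, known mainly from trunk and limb, were rare even in the AGM. Hoxc reads were present in 9 of the 48 AGM cells (18.75%, 8.95 to 32.6%) at 9.97 CPM pooled, in 1 yolk sac cell (3 reads of Hoxc6) and in no liver cell. Hoxd reads were present in 6 AGM cells (2.75 CPM, or 1.32 without cell 16), in 1 yolk sac cell (6 reads of Hoxd8) and in no liver cell. The Hoxc genes with the most AGM cells were Hoxc6 (5 cells, 4.23 CPM, or 2.53 without cell 5), Hoxc5, Hoxc8 and Hoxc9 (3 cells each). Leaving out 1 AGM cell took Hoxc5 from 1.97 to 1.23 CPM (cell 44), Hoxc8 from 2.24 to 0.659 (cell 18), Hoxc9 from 1.23 to 0.513 (cell 5) and Hoxd8 from 1.26 to 0.660 (cell 3). Hoxc4 and Hoxc10 had 9 reads each in 2 AGM cells, and Hoxd4 had 2 reads in 2 AGM cells. Hoxd8 was in 4 AGM cells. Hoxd13, the most posterior member, had 88 reads in AGM cell 16 and none in any other cell.

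These reads lay partly in wells that also held markers of other cell types. Of the 48 AGM wells, 7 had reads of 3 or more mesenchymal or nephric markers (cells 6, 8, 9, 18, 25, 30 and 44), as had yolk sac wells 2 and 3. Without them, Hoxc or Hoxd reads were present in 6 of 41 AGM cells at 6.27 CPM, against 13 of 48 at 12.7 CPM with them, and Hoxc5 was in no cell. AGM cell 9, with 3 nephric markers, had reads of 16 Hox genes, 4 of them Hoxc and 2 Hoxd. AGM cell 18, with 6 mesenchymal markers, had the highest Hox total of any cell, 1151.5 CPM, of which 888 was Hoxa7. Hoxc6, Hoxc8 and Hoxc9 were each left in 1 AGM cell, at 2.08, 0.466 and 0.854 CPM, and Hoxd8 in 3 at 1.01 CPM. Hoxa4 was left in 6 AGM cells at 1.13 CPM. Hoxb reads were present in 25 of 41 AGM cells at 41.96 CPM without these wells, with Hoxb5 in 14 and Hoxb9 in 12, and Hoxa9 was in 30 of 41. In the yolk sac Hoxb was left in 3 of 14 cells at 12.1 CPM.

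**Figure D4:**
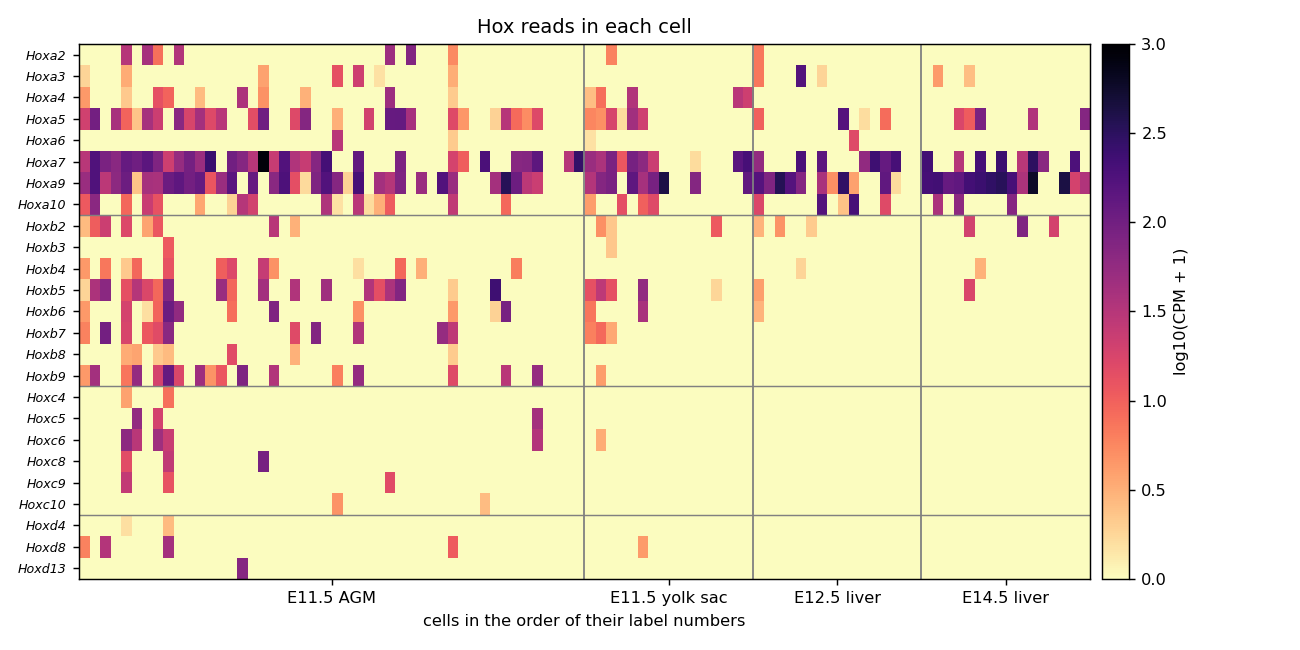
Columns are the 96 cells, by group and then in the order of their label numbers, rows are 25 of the 26 Hox genes by cluster, and colour gives log10(CPM + 1). Hoxa7 and Hoxa9 run through all groups, whereas Hoxb reads are most frequent in the AGM, and Hoxc and Hoxd reads lie in 13 AGM cells and 2 yolk sac cells.

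The comparisons between groups were made over all genes with at least 30 reads, 15239 genes of which 20 were Hox members, and a gene was called at a 2-fold difference of pooled CPM on the scale above; the members with fewer reads included Hoxb3, Hoxb8, Hoxc4, Hoxc10 and Hoxd4. Yolk sac was compared with the AGM first, since both were sorted on the same day by the same gate. No Hox member was at least 2-fold higher in the yolk sac (8.61% of all genes were), and 11 of 20 were at least 2-fold lower (21% of all genes were): Hoxa2, Hoxa3, Hoxa5, Hoxb4, Hoxb7, Hoxb9, Hoxc5, Hoxc6, Hoxc8, Hoxc9 and Hoxd13. Hoxc5, Hoxc8, Hoxc9 and Hoxd13 had reads in the AGM only, so they could not come out higher elsewhere. Hoxa2, Hoxa6, Hoxb4, Hoxb7, Hoxb9, Hoxc6 and Hoxd8 also reached 30 reads only through the AGM. The counts of members lower than in the AGM, and the medians, are in part set by this minimum. Of the 11 calls, 7 stood without any 1 cell. The other 4 were lost without 1 AGM cell: Hoxa3 (-0.68 without cell 27; cell 25 also ended it), Hoxc8 (-0.73 without cell 18), Hoxc9 (-0.60 without cell 5; cell 30 also ended it) and Hoxd13 (0 without cell 16). Without the wells with mesenchymal or nephric markers 8 were lower, as Hoxa3, Hoxc5, Hoxc8 and Hoxc9 were lost and Hoxb5 was gained, and Hoxa4 was at least 2-fold higher. The median log2 ratio was -1.14 for the 20 members and -0.20 for all genes. Hoxa9 (0.00) and Hoxa7 (-0.53) were among the members that were not called. Hoxa4 had the highest ratio of any member, 0.90.

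Between the AGM and the E12.5 liver, which differ in site, day and gate, 14 of 20 members were at least 2-fold lower in liver (26% of all genes were) and 2 were at least 2-fold higher (15.6% of all genes were). The lower ones were Hoxa2, Hoxa4, Hoxa5, all tested Hoxb genes except Hoxb2, and all tested Hoxc and Hoxd genes. Of these, only Hoxa4, Hoxa5, Hoxb5 and Hoxb6 had 30 or more reads outside the AGM. The rest reached the minimum of reads through the AGM. The higher ones were Hoxa3 and Hoxa10, and both calls rested on 1 E12.5 cell: the log2 ratio was -0.65 for Hoxa3 without cell 5 and 0.78 for Hoxa10 without cell 7. In the E14.5 liver, 13 members were at least 2-fold lower than in the AGM (25.3% of all genes were) and 2, Hoxa9 and Hoxb2, at least 2-fold higher (15.3% of all genes were). The Hoxb2 call was lost without E14.5 cell 10, at a log2 ratio of 0.23, and the Hoxa9 call stood without any 1 cell. Hoxc8, Hoxc9, Hoxd8 and Hoxd13 were no longer called lower in either liver group when 1 AGM cell was left out: cell 18 for Hoxc8, 5 or 30 for Hoxc9, 3 or 9 for Hoxd8 (-0.73 without cell 3) and 16 for Hoxd13. Without the wells with mesenchymal or nephric markers, 11 members were lower in the E12.5 liver and 10 in the E14.5 liver, as Hoxc5, Hoxc8 and Hoxc9 were lost from both. The median log2 ratios of the members were -1.41 and -1.32, and those of all genes -0.20 and -0.23. The last 2 comparisons and that of the yolk sac share the AGM cells, so their counts are not independent of each other.

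Few Hox members differed 2-fold between the liver groups, but many could not do so. Hoxa4, Hoxb7, Hoxb9, Hoxc5, Hoxc6, Hoxc8, Hoxc9, Hoxd8 and Hoxd13 had no read in either liver group. Hoxb4 and Hoxb6 had 2 reads or fewer in each. Hoxc5, Hoxc8, Hoxc9 and Hoxd13 had no yolk sac read either. The counts of called members and the member median are in part set by these members. From E12.5 to E14.5, 1 member was at least 2-fold higher (Hoxb2, 18.7% of all genes were) and 1 at least 2-fold lower (Hoxa3, 18.2% of all genes were). The Hoxa3 call was lost without E12.5 cell 5, at a log2 ratio of -0.22, and the ratio of Hoxb2 was 2.44, or 1.17 without E14.5 cell 10. The median log2 ratio was 0.00 for the members and for all genes, while the Hox total was 0.63 higher at E14.5. Against yolk sac, E12.5 liver had 2 members at least 2-fold higher (Hoxa3 and Hoxa10, 19.7% of all genes were) and 4 at least 2-fold lower (Hoxa4, Hoxb5, Hoxb6 and Hoxb7, 19.5% of all genes were). Of these, the calls of Hoxa3 (0.48 without E12.5 cell 5), Hoxb6 (-0.52 without yolk sac cell 6) and Hoxb7 (-0.74 without yolk sac cell 2; cells 1 and 3 also ended it) were lost without 1 cell.

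The absence of Hox reads from liver cells was set beside genes of like frequency in the AGM. Of the 7 members with a read in 10 to 19 AGM cells, 3 (Hoxa4, Hoxb7 and Hoxb9) had no read in either liver group, as had 3.03% of the 3001 genes of that frequency. Of the 9 members in 2 to 9 AGM cells that had at least 30 reads, 5 (Hoxc5, Hoxc6, Hoxc8, Hoxc9 and Hoxd8) had none, as had 30.3% of 4306 genes. Except for Hoxa4, these members without a liver read reached 30 reads only through the AGM. Their absence from liver is in part set by that minimum, which also held for the genes beside them. Without the wells with mesenchymal or nephric markers, Hoxc5 was in no AGM cell, and Hoxc6, Hoxc8 and Hoxc9 were in 1 each. Whether the shares differ was not tested.

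Hoxa9 was in 36 of all 48 AGM cells (75%), the share beside which its overlaps with other members are given. Whether the overlaps exceed that share was not tested. In the AGM, 27 cells had both Hoxa7 and Hoxa9 and 6 had neither. All 12 cells with Hoxb6 also had Hoxa9, as had 16 of 17 with Hoxb9, 12 of 13 with Hoxb4 and 17 of 19 with Hoxb5. Both Hoxa7 and Hoxa9 were present in 8 yolk sac cells, 5 E12.5 liver cells and 7 E14.5 liver cells. Cells with reads of a Hoxa gene and of another cluster numbered 33 of 48 in the AGM (68.75%, 53.7 to 81.3%), 4 of 16 in the yolk sac (25%, 7.27 to 52.4%) and 3 of 16 in each liver group (18.75%, 4.05 to 45.6%). Hoxa reads alone were present in 11 cells of the AGM, 7 of the yolk sac, 10 of the E12.5 liver and 12 of the E14.5 liver.

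In the AGM and the yolk sac, the number of Hox genes in a cell moved with the number of all genes detected there, and less so in liver. Spearman's rho between them was 0.76 in the AGM (48 cells), 0.84 in the yolk sac, 0.44 in the E12.5 liver and 0.23 in the E14.5 liver (16 cells each), as a description, since both counts come from the same well. With total reads per cell it was 0.10 in the AGM and 0.76 in the yolk sac. The AGM cells with the most Hox genes were cells 5 (20), 9 (16), 36 (15), 8 (14) and 1 (13), and all of these but cell 9 had 9903 to 11094 genes. Yolk sac cells 1, 2 and 3 and E12.5 cell 1 had 9848 to 10823 genes and 8 to 10 Hox genes. Cells with 3000 to 7000 genes, a range chosen after the data were seen, were also compared alone. Among those, Hoxb reads were present in 24 of 38 cells in the AGM, 1 of 10 in the yolk sac, 3 of 13 in the E12.5 liver and 4 of 15 in the E14.5 liver, and Hoxc or Hoxd reads in 7 AGM cells and no cell of the other groups. Hoxa9 was then in 26 of 38, 4 of 10, 9 of 13 and 13 of 15 cells.

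**Figure D5:**
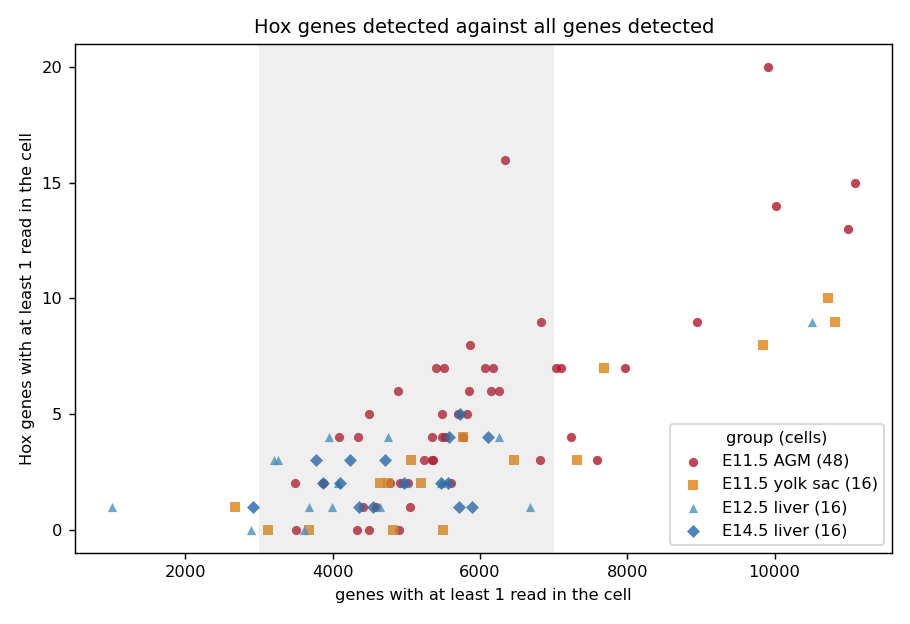
Each point is 1 cell, with the number of genes that had a read on the x axis and the number of Hox genes with a read on the y axis; the shaded band marks 3000 to 7000 genes. Cells with more genes had more Hox genes in the AGM and the yolk sac, and the AGM cells reach 20 Hox genes while no E14.5 cell exceeds 5.

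The AGM cells were not alike across their label numbers. Cells 1 to 16 had a median of 6572 genes and 7 Hox genes, 299 CPM of Hox reads, Hoxb reads in 14 of 16 and Hoxc or Hoxd reads in 7. Cells 17 to 48 had a median of 5148 genes and 3.5 Hox genes, 205.4 CPM of Hox reads, Hoxb reads in 18 of 32 and Hoxc or Hoxd reads in 6. Hoxa9 was in 15 of the first 16 cells and in 21 of the other 32. What the numbers stand for is not given in the labels. Of these blocks, only cells 1 to 16 were also taken alone as the AGM group. With cells 1 to 16 alone as the AGM group, the log2 ratio of the Hox total over the AGM was -1.04 for the yolk sac (-0.68 with all cells), -0.58 for the E12.5 liver (-0.22 with all cells) and 0.048 for the E14.5 liver (0.41 with all cells). In the E14.5 liver, 4 wells (3, 8, 13 and 16) had 1000 CPM or more of the haemoglobin gene Hba-a1, and without them Hoxa9 was in 11 of 12 cells and the Hox total was 336 CPM.

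Hox proteins bind DNA together with TALE homeodomain cofactors of the Pbx and Meis families. Meis1, the partner of Hoxa9 in leukaemia, was present in most cells of every group (37 of 48, 12 of 16, 12 of 16 and 13 of 16) at 63.6, 80.1, 92.4 and 76.2 CPM from the AGM to E14.5 liver, and was not called in any comparison. Meis2 was in 16 AGM cells (9.14 CPM), 3 yolk sac cells (1.12 CPM, or 0.239 without cell 15), 1 E12.5 cell and no E14.5 cell, and Meis3 in 8 AGM cells (14.4 CPM, 7.24 without cell 5), 1 yolk sac cell and no liver cell. Of 10 cofactor genes with at least 30 reads, 4 were at least 2-fold lower and none higher in the yolk sac than in the AGM, among them Pbx4, Meis2 and Meis3. In the E12.5 liver 4 were lower, among them Pbx3, Meis2 and Meis3, and 2 higher (Pbx4 and Tgif1) than in the AGM. Of all genes, 21% were lower and 8.61% higher in the yolk sac, and 26% lower and 15.6% higher in the E12.5 liver. The list's median log2 ratios were -0.73 and -0.92, beside -0.20 for all genes in each case.

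Retinoic acid signalling is known to switch on anterior Hox genes. Of 8 genes of the axial list found in the table, 4 were at least 2-fold lower in the yolk sac than in the AGM and none higher. The 4 were Gdf11, Rarb, Rarg and Cyp26b1. In the E12.5 liver 3 were lower (Rarb, Rarg and Cyp26b1) and 1 was higher (Gdf11). The list medians were -0.93 and -0.43, beside -0.20 for all genes in each case. The shares of all genes lower and higher were 21% and 8.61% in the yolk sac and 26% and 15.6% in the E12.5 liver. Rarb, a retinoic acid receptor, was in 12 of the 48 AGM cells at 8.96 CPM, 1 yolk sac cell at 3.36 CPM, 2 E12.5 liver cells at 2.41 CPM (0.115 without cell 11) and no E14.5 cell. Cyp26b1, which degrades retinoic acid, was in 14 AGM cells at 4.26 CPM, 1 yolk sac cell with 1 read and no liver cell. Rarg was in 9 AGM cells at 3.75 CPM (2.10 without cell 39) and Rara in 12 at 6.14 CPM, against 1.12 CPM or less in the liver groups for Rarg, and 5.83 (0.167 without cell 15) and 0.486 CPM for Rara. Yy1 was present in every group at 34.4 to 66.7 CPM. Cdx1, Cdx2 and Cdx4, activators of Hox genes, were not analysed here.

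Trithorax and MLL proteins keep Hox genes active, and Polycomb proteins keep them silent. Kmt2a, which encodes MLL1, was in 27 of the 48 AGM cells at 15.1 CPM, 8 yolk sac cells at 7.62 CPM, 7 E12.5 liver cells at 12.2 CPM (4.14 without cell 2) and 7 E14.5 liver cells at 32.7 CPM (17.7 without cell 14). Of 20 trithorax and MLL genes, 7 were at least 2-fold lower and 2 higher in the E12.5 liver than in the AGM. The list median was -0.27, beside -0.20 for all genes, of which 26% were lower and 15.6% higher. In the yolk sac 2 were lower and 2 higher, where 21% of all genes were lower and 8.61% higher. The largest difference was in Kdm6b, which removes the Polycomb mark: it was in 36 of the 48 AGM cells at 38.1 CPM, 9 yolk sac cells at 29.3 CPM, 3 E12.5 liver cells at 1.26 CPM (0.609 without cell 1) and 2 E14.5 liver cells at 6.51 CPM (0.159 without cell 11). Dot1l, a histone methyltransferase recruited by MLL fusions, was in 37, 10, 5 and 1 cells at 35.9, 21.6, 13.02 and 2.23 CPM, with 2.81 CPM in the E12.5 liver without cell 16. Aff4 was in 37, 13, 4 and 4 cells at 53.6, 65.0, 9.03 and 11.3 CPM, or 32.4 CPM without yolk sac cell 10, 3.81 without cell 5 of E12.5 and 1.904 without cell 11 of E14.5.

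Of 21 Polycomb genes, 5 were at least 2-fold higher and 4 lower in the E12.5 liver than in the AGM, with a list median of 0.19, and 5 were higher and 1 lower in the E14.5 liver, with a median of 0.35. Cbx8, a subunit of Polycomb repressive complex 1, was in 3 of the 48 AGM cells at 1.23 CPM (0.581 without cell 5), 4 yolk sac cells at 3.72 CPM (1.83 without cell 4), 5 E12.5 liver cells at 36.1 CPM and 6 E14.5 liver cells at 39.8 CPM. Ezh1, a histone methyltransferase of repressive complex 2, was in 11, 4, 7 and 3 cells at 15.6, 19.4, 104 and 44.3 CPM, or 9.01 CPM without AGM cell 40 and 9.84 without yolk sac cell 10. Phc1, another subunit of complex 1, was in 28 AGM cells at 17.7 CPM and 2 E14.5 liver cells at 3.01 CPM (1.29 without cell 4). Of all genes, 26% were lower and 15.6% higher in the E12.5 liver than in the AGM, and 25.3% lower and 15.3% higher in the E14.5 liver.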

How the data were processed

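RNA of 96 single cells was measured. The authors deposited whole-number read counts per gene, not normalized, with 1 column per cell; the submitters' processing notes name FastQC, Trimmomatic 0.36, STAR, HTSeq and mm10. No molecular identifiers are named, so PCR copies count as reads. All 96 columns matched a sample by name (0 left out). The 19949 rows were summed by symbol to 19836 genes, and no cell was removed at a minimum of 1000 genes. All 26 member IDs matched GENCODE M21, 25 with the same version. Reads were summed per group, divided by the group's total (CPM) and compared as log2((a + 1)/(b + 1)), with a pseudocount of 1 CPM, over 15239 genes with at least 30 reads; a 2-fold difference was called. The ratio calculation was run on simulated Poisson counts with known fold changes and no spread between cells. That checks the calculation and not the calls. Shares have exact Clopper-Pearson and CPM exact Poisson 95% intervals, with a floor of 3 reads (0.0498 CPM in the AGM, 0.134 to 0.157 elsewhere).

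Values by cell are given for Hox genes with reads in 25% or more of the cells of a group. Of each partner or regulator list at most 6 genes with the largest ratio are named, plus Meis1 and Kmt2a; the results of 1 member and 1 cofactor gene are not reported here. Beside a pooled CPM from several cells, a cell is named where it holds over 50% of the reads or moves the value over 1.5 times. The members and lists were chosen with earlier results of these data known. The listed genes Cdx1, Cdx2, Cdx4, Aldh1a2, T, Evx1, Evx2, Gata4, Nr5a1 and Alb were not analysed here. Alternatives were other depth, detection, pooling, pseudocount, scaling and cell choices. Python 3.11.15, numpy 2.4.6, pandas 2.3.3 and scipy 1.17.1 were used.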

Additional observations from a re-analysis of the deposited data

How the results depend on the processing

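The log2 ratios of the Hox total kept their direction under the alternatives run, which did not include AGM cells 17 to 32 or 33 to 48 alone. Pooled Hoxb was higher in the yolk sac than in the E14.5 liver with all cells (14.2 and 8.40 CPM) and lower among cells with 3000 to 7000 genes (1.07 and 8.69 CPM), and Hoxa3 went from higher to lower in the E12.5 liver than in the AGM without E12.5 cell 5. For AGM, cells 1 to 16 alone gave 7 Hox genes per cell, a share of 100% with a Hox or a Hoxa read, 87.5% with a Hoxb, Hoxc or Hoxd read and 299 CPM of Hox reads. They gave log2 ratios of -1.04 for the yolk sac, -0.58 for E12.5 and 0.048 for the E14.5 liver over the AGM, and 1 gene 2-fold higher in the E14.5 liver. A share with a Hoxb, Hoxc or Hoxd read in the E12.5 liver was 6.25% at 5 reads or more and 0% at 10 CPM or more.

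Thinned to 690000 reads, Hox CPM was 218.7 in the AGM, 140 in the yolk sac and 295 in the E14.5 liver, with ratios of -0.092 for the E12.5 liver over the AGM and 0.52 for E14.5 over the E12.5 liver (3 genes lower). The mean of the CPM of each cell gave 244 in the AGM, 138 in the yolk sac and 192.8 in the E12.5 liver, ratios of -0.81, -0.34 and 0.33 for the yolk sac, E12.5 and the E14.5 liver over the AGM, and 2 genes higher and 2 lower at E14.5 than at E12.5. Without the deepest cell of each group, E12.5 liver was at 212.7 CPM, its ratio to AGM was -0.15, and 2 genes were lower at E14.5 than at E12.5. Median-of-ratios scaling gave -0.58 for the yolk sac over the AGM.

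With 10 CPM added instead of 1, the genes called fell to 0 lower in the yolk sac than in the AGM, 0 higher and 2 lower in the E12.5 liver than in the AGM, 1 higher and 2 lower in the E14.5 liver than in the AGM, 0 higher at E14.5 than at E12.5, and 0 lower in the E12.5 liver than in the yolk sac. With 0.1 CPM added, 1 gene was higher in the yolk sac than in the AGM, 2 were higher and 4 lower at E14.5 than at E12.5, and 7 were lower in the E12.5 liver than in the yolk sac.

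Leaving out 1 cell at a time, Hox CPM was 216.4 (without cell 18) to 238 in the AGM, 130 to 154.1 in the yolk sac, 182.4 to 213.4 in the E12.5 liver and 254 (without cell 11) to 330 in the E14.5 liver. The ratio was -0.84 to -0.57 for the yolk sac over the AGM, -0.35 to -0.12 for the E12.5 liver over the AGM, 0.35 to 0.76 for E14.5 over the E12.5 liver, 0.33 to 0.61 for the E12.5 liver over the yolk sac and 0.13 to 0.51 for the E14.5 liver over the AGM.

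Another 3 alternatives were chosen after seeing the data. Among cells with 3000 to 7000 genes, 10% of yolk sac cells had a Hoxb, Hoxc or Hoxd read. Hox CPM was 121 in the yolk sac and 208.9 in the E12.5 liver, with ratios of -0.92, -0.14, 0.54 and 0.78 for the yolk sac over the AGM, E12.5 liver over the AGM, E14.5 over the E12.5 liver and the E12.5 liver over the yolk sac. There 1 gene was higher in the yolk sac than in the AGM, 2 at E14.5 than at E12.5, and 1 lower in the E12.5 liver than in the yolk sac. Without wells with 3 or more mesenchymal or nephric markers, Hox CPM was 206.95 in the AGM and 138 in the yolk sac, with ratios of -0.58, -0.054 and 0.58 for the yolk sac, E12.5 and the E14.5 liver over the AGM, and 1 gene was higher in the yolk sac. Without E14.5 wells at 1000 CPM or more of Hba-a1, 100% of E14.5 liver cells had a Hoxa read, the Hox CPM was 336, its ratios were 0.75 over the E12.5 liver and 0.53 over the AGM, and 2 genes were higher than at E12.5. The causes were not tested.

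No paired analysis was possible because a label number is the only replicate mark shared between groups, and no label ties it to an animal or a litter, and the results come from no test. With 16 cells, a share of 0 has an exact interval of up to 20.6%.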

Other observations

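Non-coding transcripts and neighbours of the Hox clusters were also read. Hotairm1, an antisense transcript at the low-numbered end of the Hoxa cluster, had a read in 19 of the 48 AGM cells at 1.74 CPM pooled, against 1 yolk sac cell (1 read), 2 E12.5 liver cells (7 reads) and no E14.5 liver cell. Hoxb3os, antisense to Hoxb2 and Hoxb3, had a read in 1 AGM cell, 2 yolk sac cells, 3 E12.5 liver cells (3.25 CPM, or 1.21 without cell 6) and 1 E14.5 cell, and so was found in liver cells where Hoxb3 was not. Hoxaas3, antisense to Hoxa7, had a read in 3 AGM cells, 1 yolk sac cell (31 reads) and 1 E14.5 cell (19 reads), and Hoxd3os1 in 5 AGM cells and 1 yolk sac cell. Without strand information these reads and those of the overlapping Hox exons cannot be told apart. Outside the clusters, Mtx2, which flanks the Hoxd cluster, was in 43 of the 48 AGM cells, 13 of the 16 yolk sac cells, 10 of 16 E12.5 liver cells and 16 of 16 E14.5 liver cells at 173.7, 119, 122 and 198.2 CPM. Snx10, which lies beyond the Hoxa cluster, was at 14.6, 13.4, 54.1 and 42.4 CPM, with 8.32 CPM in the yolk sac without cell 6 and 22.3 CPM in the E12.5 liver without cell 3. Of 7 such genes with at least 30 reads, 2 were at least 2-fold higher and 1 lower in the E12.5 liver than in the AGM, where 15.6% of all genes were higher and 26% lower.

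Of 9 genes named beside Hox genes in work on leukaemia and stem cells, Flt3, a cytokine receptor, and Erg, a transcription factor, were at least 2-fold higher in the E12.5 liver than in the AGM, and Nkx2-3, a homeodomain factor outside the Hox clusters, was at least 2-fold lower. Of all genes, 15.6% were higher and 26% lower in that comparison. The median log2 ratio of the 9 genes was 0.67, beside -0.20 for all genes. Flt3 was at 51.1, 85.5, 187.5 and 158.3 CPM from the AGM to E14.5 liver and Nkx2-3 at 40.9, 6.86, 11.02 and 25.1 CPM. Nkx2-3 was at 0.760 CPM in the E12.5 liver without cell 12, and Erg there was at 24.5 CPM, or 9.31 without cell 3. Hlf, a transcription factor of stem cells, was at 37.7, 21.3, 71.5 and 45.3 CPM, with 11.7 CPM in the yolk sac without cell 10.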
